A study of Mus musculus with 16 samples.

Results

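The SLC25 family is a set of nuclear-encoded proteins, most of which are carriers that move metabolites, nucleotides, cofactors and metal ions across the inner mitochondrial membrane. A few sit in other membranes, such as that of the peroxisome or the outer mitochondrial membrane. Its members were taken as every protein-coding gene of the count table whose symbol is Slc25a followed by a number, which gave 47 of 55416 genes, 21627 of them protein-coding. The pseudogene Slc25a5-ps was left out. Genes of the family with other symbols (Ucp1, Ucp2, Ucp3, Mtch1 and Mtch2) were kept as a separate list.

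Erythroblasts of mouse foetal liver at E13.5 were sorted into S1 and S3 on Ter119 and CD71 and their poly(A)+ mRNA was sequenced, with 1 library per embryo and stage and 16 libraries in all. S1 holds the earlier and S3 the later erythroblasts of the sort. The embryos were 4 Nprl3+/+ (WT, embryos 0 and 8 male, 1 and 5 female), 2 Nprl3+/- (Het, embryos 3 and 4, both male) and 2 Nprl3-/- (KO, embryo 2 female and embryo 9 male). Nprl3 encodes a subunit of GATOR1, a restraint on mTORC1 signalling. The null allele is a constitutive deletion of the Nprl3 promoter, on a background backcrossed to C57BL/6J, and the α-globin enhancers that lie within the gene are kept. It is present in every tissue of the embryo and not only in erythroid cells. The source and tissue labels name an embryonic stem cell line, while titles and protocols give sorted foetal liver, and the latter was used.

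In developing red cells the family serves several tasks at once. Mitoferrin carries iron to the matrix, where it is inserted into protoporphyrin to make heme, and the glycine carrier is known for feeding the first step of heme synthesis. Other members exchange ADP for ATP, import phosphate and glutathione, and connect the citric acid cycle, the urea cycle and one-carbon metabolism with the cytosol.

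Total counts ran from 20666044 to 37609502 per library. Nprl3 itself stood at 26.4, 21, 23 and 33.8 CPM (normalised read counts scaled to a common total) in the 4 WT libraries at S1, 12.3 and 12.6 in Het and 0.308 and 0.657 in KO. At S3 it stood at 167, 143, 146 and 214 in WT, 153 and 126 in Het and 110.0 and 117 in KO, so that the KO libraries lay below every WT library at both stages but kept many reads at S3. Reads were counted over all exons of the gene without strand. The α-globin enhancers that the allele keeps are known to give polyadenylated transcripts of their own from within the gene, and their part in these reads was not tested. The 14 erythroid markers summed to 5512 to 46956 TPM (counts divided by gene length and scaled to a common total) at S1 and to 306320 to 365715 at S3, and 5 early markers to 467 to 696 at S1 and 8.90 to 23.3 at S3. The WT S1 libraries of embryos 0 and 8, the WT males, stood apart from those of embryos 1 and 5. Globin took 1.07, 0.184, 0.29 and 1% of counts in embryos 0, 1, 5 and 8, 14 hepatoblast markers summed to 672, 148, 166 and 703 TPM and 11 neutrophil markers to 424, 2532, 2329.7 and 244 TPM. Neutrophil markers summed to 2702 to 3356 TPM in the Het and KO libraries at S1 and to at most 24.1 TPM in any library at S3, with Ly6g under 0.1 TPM in every group. These were bulk samples, in which fewer cells of a type and less RNA per cell cannot be told apart.

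Levels of different members were compared in TPM. At S1 the order in WT was led by Slc25a5, the main ADP/ATP carrier of dividing cells, at 2286 ± 682 TPM (SD, n = 4). The phosphate carrier Slc25a3 followed at 507 ± 62.9 TPM, the citrate carrier Slc25a1 at 319.5 ± 45.8, the second ADP/ATP carrier Slc25a4 at 278 ± 42.9 and the glutathione carrier Slc25a39 at 271 ± 44.7. Slc25a5 lay above Slc25a3, and Slc25a3 above Slc25a1, in every WT library, whereas the ranges of Slc25a1, Slc25a4 and Slc25a39 overlapped from neighbour to neighbour.

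At S3 the order was different. Slc25a39 led at 1636 ± 94.2 TPM in WT, followed by mitoferrin-1, Slc25a37, at 729 ± 201, Slc25a5 at 697 ± 157 and the glycine carrier Slc25a38 at 310.0 ± 23.6. Slc25a39 lay above all others in every WT library, and Slc25a37 and Slc25a5 overlapped. A mean of at least 10 TPM was reached by 24 members in WT at S1 and by 16 at S3, and a mean of at least 100 TPM by 8 and by 5.

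**Figure D1:**
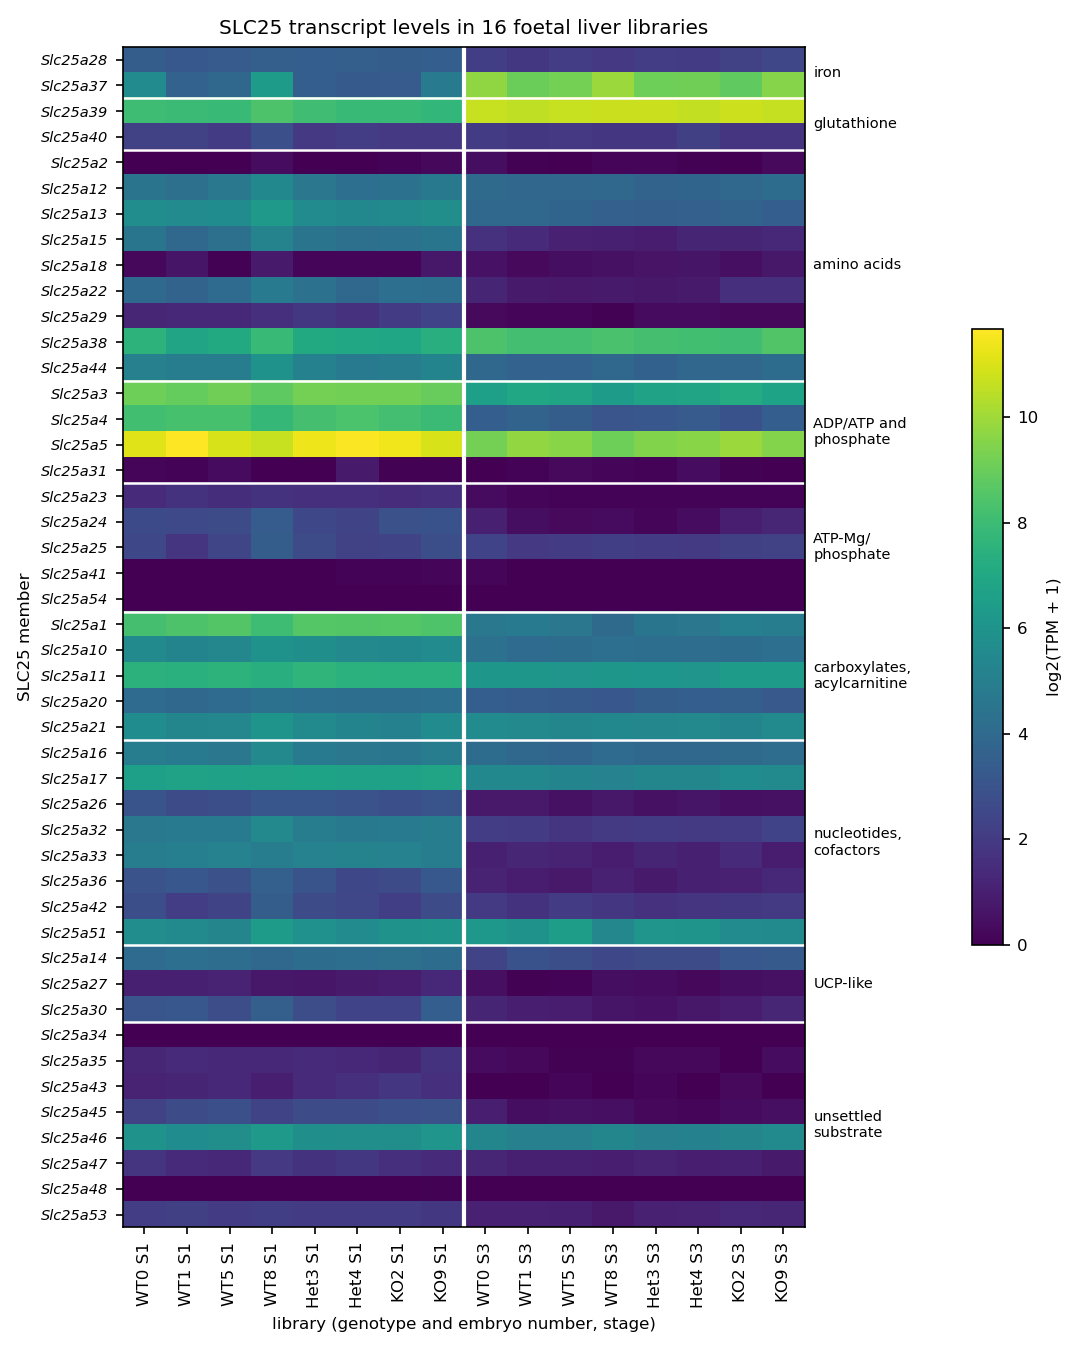
Levels of 46 SLC25 members as log2(TPM + 1) (colour scale), by member (rows, grouped by substrate) and library (columns, S1 on the left and S3 on the right, with genotype and embryo number). The rows of Slc25a37, Slc25a38 and Slc25a39 brighten at S3 and those of Slc25a1, Slc25a4 and Slc25a33 darken, in libraries of all 3 genotypes.

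The make-up of the family's transcript pool does not depend on how libraries are scaled against each other. The iron, glycine and glutathione carriers Slc25a37, Slc25a38 and Slc25a39 together made up 10.6, 6.71, 8.64 and 15.1% of the summed SLC25 TPM in the WT embryos 0, 1, 5 and 8 at S1. At S3 they made up 71.5, 62.2, 66.2 and 75%. The share was 8.05 and 6.69% in the Het and 6.95 and 9.08% in the KO libraries at S1, against 68.2 and 65.3% and 62.1 and 68.3% at S3. Every S3 library was therefore above every S1 library, and the highest S1 value was that of WT embryo 8. The phosphate and ADP/ATP carriers Slc25a3, Slc25a4 and Slc25a5 went the other way, from 64.8, 72.8, 64.7 and 53.6% at S1 to 17.6, 27.2, 23.3 and 15.9% at S3 in the same WT embryos. Slc25a39 alone held 42.1% ± 1.42 of the pool in WT at S3 (SD, n = 4) and Slc25a5 alone held 47.4% ± 8.36 at S1.

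**Figure D2:**
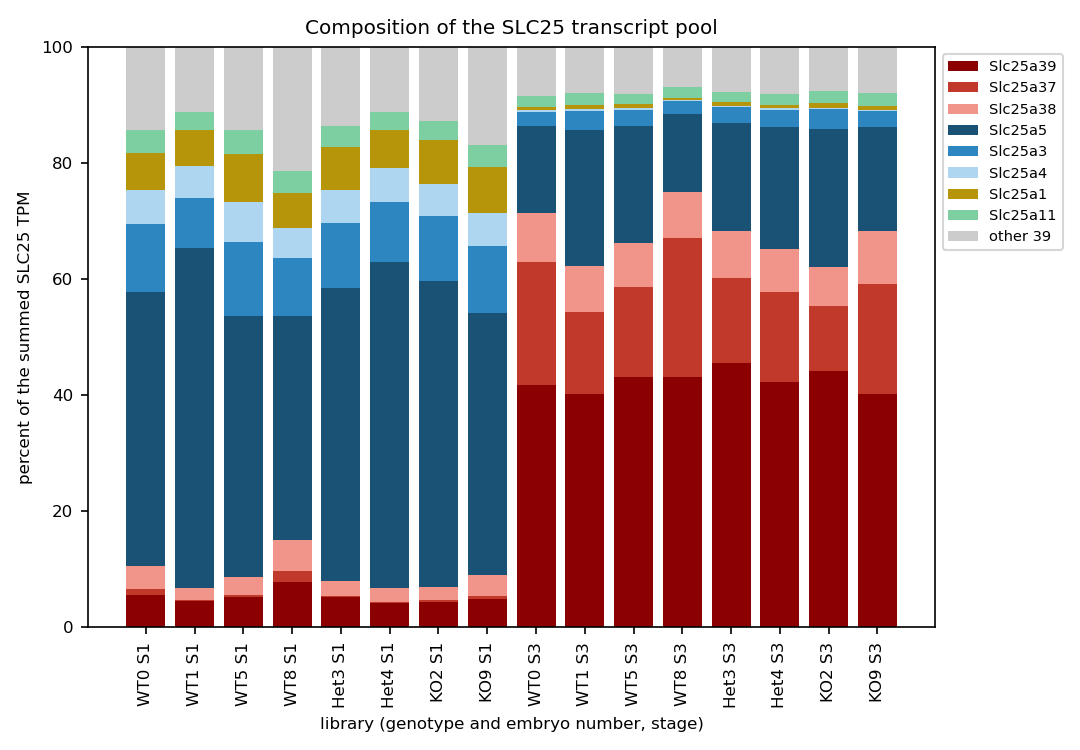
Percent of the summed SLC25 TPM (vertical axis, 0 to 100) taken by 8 members and by the other 39 in each of the 16 libraries (bars, 1 library each). Slc25a5, Slc25a3 and Slc25a4 (blues) hold 53.6 to 72.8% of the bar in WT at S1, and Slc25a39, Slc25a37 and Slc25a38 (reds) hold 62.2 to 75.0% in WT at S3.

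The summed level of the family gave no single direction between stages. In WT it was 4691, 5544, 4455 and 4329.8 TPM at S1 and 3981, 3732, 3852 and 3983 TPM at S3 in embryos 0, 1, 5 and 8, a difference of -868 TPM (4755 ± 547 against 3887 ± 120, n = 4 each, exact two-sided permutation test p = 0.0286, the smallest that 4 against 4 allows). That test treats the 8 libraries as separate, while S1 and S3 libraries come in pairs from 1 embryo. The sum was lower at S3 in all 4 embryos, and an exact paired permutation test gave p = 0.125, the smallest that 4 pairs allow. With the globin genes left out of the TPM the same difference was 928 TPM (exact permutation p = 0.0571), and as a share of counts the family went from 0.441% ± 0.0341 to 0.594% ± 0.0355 (exact permutation p = 0.0286). The exact paired permutation p was 0.25 for the former and 0.125 for the latter. The direction thus turned with the denominator, and globin took 10.0 to 11.8% of counts at S3. Between KO and WT the sum differed by 117 TPM at S3 (4004 ± 10.0, n = 2, against 3887 ± 120, n = 4, exact permutation p = 0.133) and by -4.99 TPM at S1 (4750 ± 542 against 4755 ± 547, exact permutation p = 1), where 4 against 2 cannot go below p = 0.0667. Between Het and WT it differed by -161 TPM at S3 (exact permutation p = 0.2) and by 658 TPM at S1 (exact permutation p = 0.267).

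The change of single members from S1 to S3 was tested in the 4 WT embryos with edgeR's quasi-likelihood test on counts scaled by TMM, with Benjamini-Hochberg adjustment over all genes tested. Of the 47 members 39 passed the filter of a mean above 10 normalised counts, of which 11 were higher at S3, 17 were lower and 11 did not pass a threshold of 0.05. Over all 13391 genes tested, 30.8% were called higher and 35.1% lower, so that the members' counts lie near the background. Libraries of S1 and S3 did not overlap for 27 of the 39 members, against 60.8% of all genes. The median log2 fold change was -0.31 over the members and -0.08 over all genes. Scaling by total counts alone moved the median of all genes to -1.10 and gave 4 members higher and 28 lower, where 13.9% of all genes were called higher and 63.3% lower. The 4 rises of Slc25a37, Slc25a38, Slc25a39 and Slc25a51 and all 17 falls were called under every setting tried, scaling by total counts included.

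**Figure D3:**
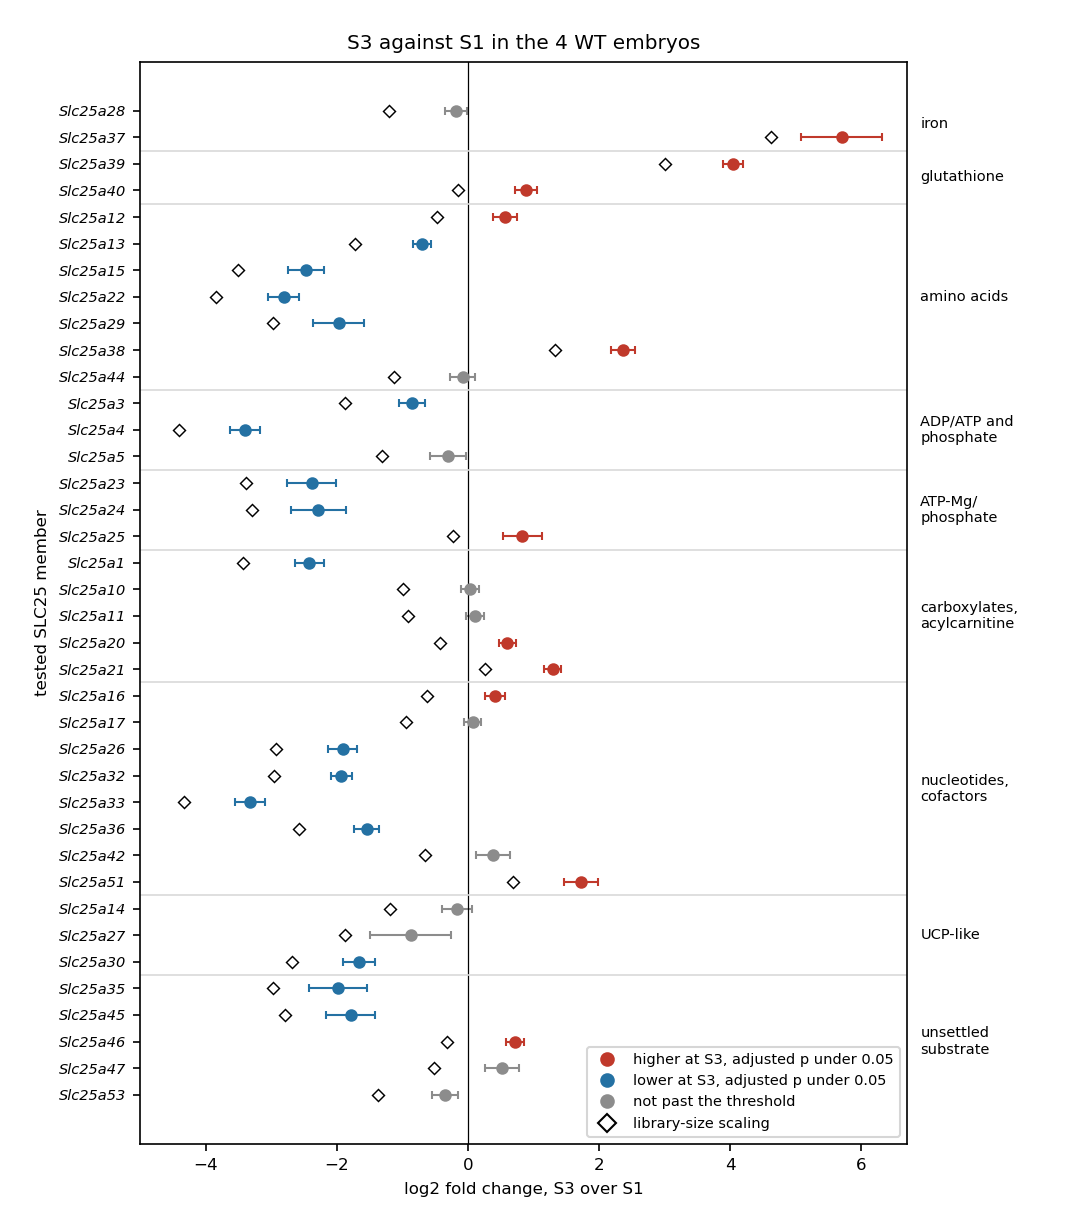
Log2 fold change of S3 over S1 in the 4 WT embryos (horizontal axis) for 38 of the 39 tested members, grouped by substrate. Filled points are the TMM-scaled fit with its standard error, red for higher and blue for lower at an adjusted p under 0.05, and open diamonds are the fit scaled by total counts, which lie about 1 to the left of the points; only Slc25a37, Slc25a38, Slc25a39, Slc25a51 and, short of the threshold, Slc25a21 stay to the right of 0 there.

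Promoters are shown for the largest rises and the largest falls that have an entry in the RefSeq table used here, as bases just upstream of the start in GRCm38.p6. Slc25a37 and Slc25a51 have no entry in it. Each member shown was called in the same direction, higher or lower, in all genotypes, and a shared control was not tested. Capitals mark 4 short motifs, searched on both strands. CACGTG is the E-box bound among others by MYC. The motifs of the GATA factors were searched as AGATAA, and in a second form as TGATAA. Other forms, such as the AGATAG in the bases of Slc25a4, were neither searched nor marked. The motif that KLF1 binds among others was searched as CACCC and appears as GGGTG where it lies on the other strand. Slc25a39 is at chr11:102407518-102407767 (- strand) and Slc25a38 at chr9:120110132-120110381 (+ strand), and of those that fell Slc25a4 is at chr8:46211063-46211312 (- strand) and Slc25a33 at chr4:149774268-149774517 (- strand).
Slc25a39: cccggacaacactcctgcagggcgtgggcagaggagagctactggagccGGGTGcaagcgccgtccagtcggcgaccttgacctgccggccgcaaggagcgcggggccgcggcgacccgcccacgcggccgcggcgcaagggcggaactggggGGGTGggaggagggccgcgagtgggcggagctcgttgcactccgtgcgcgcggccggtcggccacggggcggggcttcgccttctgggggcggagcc
Slc25a38: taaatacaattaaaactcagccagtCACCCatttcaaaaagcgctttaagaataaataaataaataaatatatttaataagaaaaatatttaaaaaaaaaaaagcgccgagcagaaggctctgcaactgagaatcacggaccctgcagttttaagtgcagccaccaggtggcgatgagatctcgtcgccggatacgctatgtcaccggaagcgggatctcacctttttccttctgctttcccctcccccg
Slc25a4: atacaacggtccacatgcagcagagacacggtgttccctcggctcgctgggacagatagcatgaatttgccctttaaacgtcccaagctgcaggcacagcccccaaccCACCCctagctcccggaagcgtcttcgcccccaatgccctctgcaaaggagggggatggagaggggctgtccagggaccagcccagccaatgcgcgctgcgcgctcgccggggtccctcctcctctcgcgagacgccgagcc
Slc25a33: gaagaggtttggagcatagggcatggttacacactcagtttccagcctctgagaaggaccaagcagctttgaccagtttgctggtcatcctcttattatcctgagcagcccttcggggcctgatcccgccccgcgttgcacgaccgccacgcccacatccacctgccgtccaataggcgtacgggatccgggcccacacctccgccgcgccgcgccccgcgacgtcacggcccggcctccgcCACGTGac
Over 36 members with 46 promoter entries, 8 entries held CACGTG (those of Slc25a1, Slc25a13, Slc25a14, Slc25a15, Slc25a31, Slc25a33 and Slc25a36), against 6.02% of all 32841 entries. AGATAA or TGATAA stood in 3 entries (Slc25a5, Slc25a12 and Slc25a53), against 16.6%, and CACCC in 27, against 52.0%. Slc25a38 and Slc25a39 held CACCC and neither AGATAA nor TGATAA in these 250 bases. These matches are of letters only.

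Iron enters the matrix through a pair of mitoferrins, Slc25a37 and Slc25a28, of which the first is known as the erythroid form. Slc25a37 (ENSMUSG00000034248.8, chromosome 14 from 69479297 to 69522561 on the minus strand in mm39) stood at 72.3, 17.5, 21.2 and 110.5 CPM in WT embryos 0, 1, 5 and 8 at S1 and at 2950.1, 2077, 2381 and 3831 CPM at S3. In Het it went from 15.7 and 14.1 to 2369 and 2293 CPM, and in KO from 14.2 and 36.6 to 1648 and 2613 CPM. No library of one stage came near the other, while the S1 values of WT embryos 0 and 8 exceeded all other S1 values. Slc25a37 rose in WT with a log2 fold change of 5.70 ± 0.62 (SE, adjusted p in edgeR = 2.16e-05), a 51.9-fold change, and without embryos 0 and 8 the log2 fold change was 6.84. Those libraries also held more globin and hepatoblast and less neutrophil marker RNA than the other WT libraries of S1, as given above, and the part of this in the S1 level of Slc25a37 was not tested.

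Slc25a28, the broadly expressed mitoferrin, stood at 9.15, 7.51, 8.87 and 8.37 CPM at S1 and 7.69, 6.57, 8.27 and 7.11 CPM at S3 in WT, with overlapping ranges and a log2 fold change of -0.19 ± 0.17 (SE, adjusted p in edgeR = 0.347); scaled by total counts it was lower at S3, at -1.21. In TPM, which is per length, the ratio of Slc25a37 to Slc25a28 was 4.92, 1.45, 1.49 and 8.22 in WT at S1 and 239, 197, 179 and 336 at S3. The ratio was 0.913 and 2.65 in KO at S1 and 119 and 164 at S3. The balance of the pair moved by over an order of magnitude in each genotype, and the level of Slc25a28 in TPM stayed under 11 in all WT libraries. In the other genotypes, for which values are given at S1 and then at S3, Slc25a28 stood at 9.63 and 10.4 and then 9.03 and 7.78 CPM in Het and 9.72 and 8.6 and then 8.64 and 9.9 CPM in KO. Transcripts of 4 other genes match Slc25a37 at 98% identity or more over at least 150 bases, with a longest match of 1196 bases, and BC037704 matches Slc25a28 over 1124 bases, so that reads from these stretches are uncertain in both levels and in their ratio. Such a match was found for 23 of the 47 members. Among them were Slc25a22 (Gm71637, 419 bases), Slc25a29 (Slc25a47, 230), Slc25a36 (Gm13217, 544) and Slc25a40 (Gm5066, 362).

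Glutathione import is assigned to Slc25a39 and its paralogue Slc25a40. Slc25a39 (ENSMUSG00000018677.10, chromosome 11 from 102293811 to 102298772 on the minus strand) stood at 179, 168, 165 and 195 CPM in WT at S1 and 2656, 2708, 3044 and 3176 CPM at S3. It stood at 190.5 and 174 and then 3384 and 2868 CPM in Het, and at 164 and 130.0 and then 2979.6 and 2534 CPM in KO. The stages were far apart and the 3 genotypes lay close together at S3. The rise in WT had a log2 fold change of 4.04 ± 0.15 (SE, adjusted p in edgeR = 1.81e-07), the smallest adjusted p of any member in that comparison. Slc25a39 has near-identical stretches in transcripts of 2 other genes, Rundc3a and Gm72261, the longest of 795 bases.

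Slc25a40 was much lower, at 8.28, 7.86, 6.61 and 11 CPM at S1 and 15.9, 15.1, 15.9 and 14.8 CPM at S3 in WT, and rose with a log2 fold change of 0.88 ± 0.17 (SE, adjusted p in edgeR = 0.00106). Scaled by total counts its log2 fold change was -0.15, so this rise rests on the scaling. In Het it went from 5.96 and 7.57 to 15.3 and 20.4 CPM and in KO from 6.12 and 5.4 to 11.9 and 11.8 CPM. The ratio of Slc25a39 to Slc25a40 in TPM went from 65.9, 65.2, 76.2 and 54.2 at S1 to 508, 545, 582 and 653 at S3 in WT, which holds under any scaling.

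Of the 9 amino acid carriers 7 were tested in WT, with 2 higher and 4 lower, where 30.8% of all genes were higher and 35.1% lower. With total-count scaling 1 was higher and 5 were lower, against 13.9% and 63.3% of all genes. Slc25a38, the glycine carrier (ENSMUSG00000032519.12, chromosome 9 from 119939440 to 119953570 on the plus strand), stood at 126, 74.8, 93.6 and 134 CPM at S1 and 544, 527, 529 and 581 CPM at S3 in WT. The corresponding values were 94.7 and 94.1 and 595 and 506 CPM in Het, and 85.4 and 98.3 and 451 and 574 CPM in KO. Slc25a38 rose in WT with a log2 fold change of 2.36 ± 0.18 (SE, adjusted p in edgeR = 2.49e-06), and the S1 values of embryos 0 and 8 were again the highest.

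The glutamate carrier Slc25a22 (ENSMUSG00000019082.19, chromosome 7 from 141009657 to 141017805 on the minus strand) fell. It stood at 22.4, 17.6, 24 and 34 CPM at S1 and 4.51, 3.08, 2.91 and 3.26 CPM at S3 in WT, with a log2 fold change of -2.81 ± 0.24 (SE, adjusted p in edgeR = 3.83e-06). At S1 the Het libraries had 29.5 and 22.4 CPM and the KO libraries 28.2 and 23.5 CPM, inside the WT range of that stage. Slc25a15, which exchanges ornithine for citrulline in the urea cycle, fell from 30.4, 19.5, 27.1 and 43.5 to 7.22, 5.97, 4.21 and 3.92 CPM, with a log2 fold change of -2.48 ± 0.28 (SE, adjusted p in edgeR = 2.51e-05). Its values were 30.5 and 28.5 and then 3.61 and 4.93 CPM in Het and 29.4 and 28.1 and then 4.45 and 4.75 CPM in KO, so that no S3 library of any genotype reached an S1 library. Slc25a29, a carrier of basic amino acids, also fell (log2 fold change -1.98 ± 0.39, SE), but from 29 to 53 raw counts in WT at S1 to 1 to 8 at S3. At S3 it stood at 0.344, 0.276, 0.268 and 0.0725 CPM in WT, 0.466 and 0.439 in Het and 0.318 and 0.283 in KO, each from a few reads.

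The aspartate-glutamate carriers of the malate-aspartate shuttle, Slc25a12 (aralar) and Slc25a13 (citrin), shifted against each other. Slc25a12 stood at 39.3, 34, 45.2 and 65.6 CPM at S1 and 66.5, 64.3, 66.3 and 71.6 at S3 in WT, and Slc25a13 at 48.3, 45.1, 47.9 and 62.5 and 31.2, 34, 31.1 and 28.1. For Slc25a12 this gave a log2 fold change of 0.56 ± 0.18 (SE, adjusted p in edgeR = 0.0187), with embryo 8 at S1 inside the S3 range. This call was lost without embryo 0, 1 or 5 (edgeR adjusted p = 0.104, 0.0563 and 0.0945), and the value turned to -0.48 when scaled by total counts. Slc25a13 fell, with a log2 fold change of -0.70 ± 0.14 (SE, adjusted p in edgeR = 0.00105). Their ratio in TPM, Slc25a12 over Slc25a13, was 0.421, 0.39, 0.488 and 0.543 at S1 and 1.1, 0.98, 1.1 and 1.32 at S3 in WT, 0.483 and 0.434 and then 1.15 and 1.13 in Het, and 0.415 and 0.47 and then 1.17 and 1.6 in KO. Every S3 ratio was above every S1 ratio. Slc25a12 alone had 43.7 and 35.9 and then 62.8 and 60.5 CPM in Het and 36.8 and 42 and then 63.4 and 69.3 CPM in KO, and Slc25a13 had 46.8 and 42.8 and then 28.3 and 27.7 CPM in Het and 45.9 and 46.2 and then 28.1 and 22.4 CPM in KO. In both of these genotypes each library of Slc25a12 was higher and each of Slc25a13 lower at S3. Slc25a44, a branched-chain amino acid carrier, did not pass the test (log2 fold change -0.08), and Slc25a2 and Slc25a18 were too low to test.

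**Figure D4:**
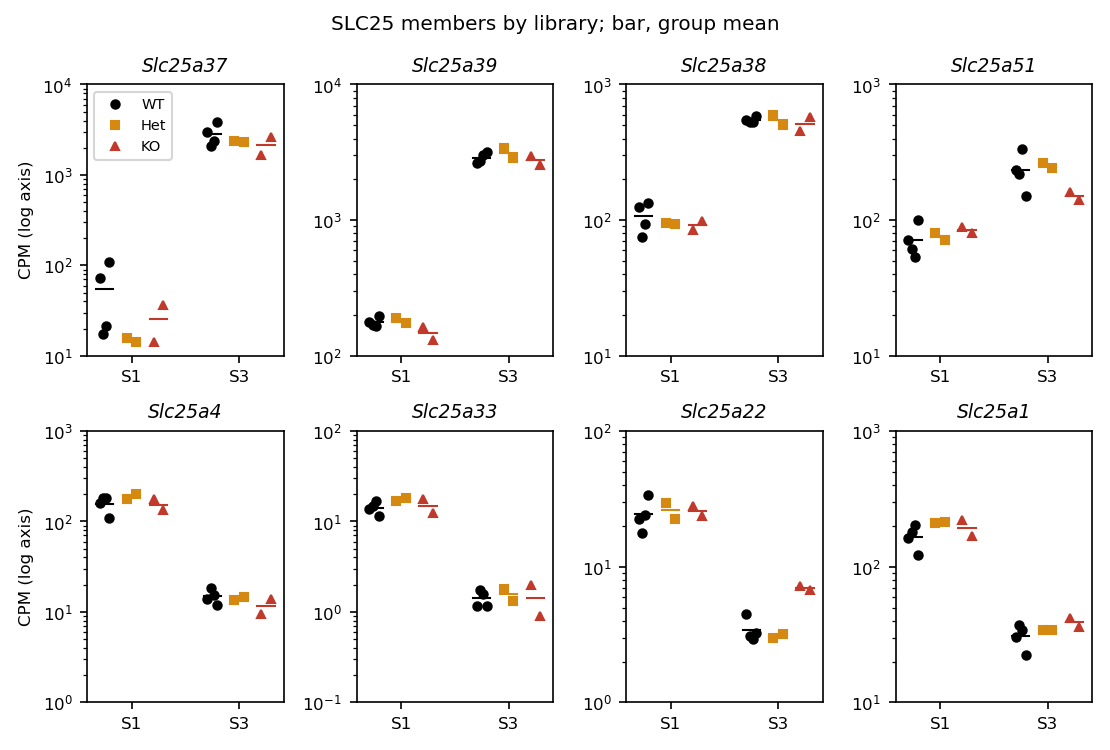
Normalised CPM on log axes for 8 members in each library, with S1 on the left and S3 on the right of each panel, WT as black circles, Het as orange squares, KO as red triangles and bars for group means. In the upper row the S3 points lie above the S1 points and in the lower row below them, and the 2 KO points of Slc25a22 at S3 (7.25 and 6.79) lie above all WT and Het points of that stage.

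Among the carriers of energy metabolism, 2 of 3 tested ADP/ATP and phosphate carriers fell in WT, where 35.1% of all genes were lower, and all 3 were lower when scaled by total counts, where 63.3% were. Slc25a4 (ENSMUSG00000031633.5, chromosome 8 from 46659834 to 46664321 on the minus strand) stood at 161, 179.8, 182 and 108 CPM at S1 and 14, 18.6, 15.6 and 11.8 CPM at S3 and fell with a log2 fold change of -3.40 ± 0.23 (SE, adjusted p in edgeR = 1.13e-06), 10.5-fold. Het and KO showed the same spacing, with 176 and 203 and 175 and 132 CPM at S1 against 13.4 and 14.6 and 9.47 and 14 CPM at S3. Its paralogue Slc25a5 stood at 903, 1312, 838 and 579 CPM at S1 and 569, 944, 851 and 594 CPM at S3 in WT, ranges that overlap, with a log2 fold change of -0.31 ± 0.27 (SE, adjusted p in edgeR = 0.34). Scaled by total counts Slc25a5 was lower at S3, at -1.32 on the log2 scale. The Het libraries had 1094 and 1379.7 CPM at S1 and 825 and 848 CPM at S3, and the KO libraries 1159 and 728 and 955 and 675 CPM, of which those of KO overlapped between stages. Slc25a5 has near-identical copies elsewhere (Gm5560 and Gm5529), and reads that map to several places are not counted by the counting program's default.

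The ratio of Slc25a5 to Slc25a4 in TPM is free of the scaling. It was 8, 10.4, 6.57 and 7.67 in WT at S1 and 58, 72.7, 78.1 and 71.8 at S3. In KO it was 9.45 and 7.87 and then 144 and 69. The germ-cell form Slc25a31 was near 0, with 3, 2, 6 and 0 raw counts in WT, 0 and 16 in Het and 1 and 1 in KO at S1, and 0, 2, 8 and 3 in WT, 2 and 8 in Het and 1 and 0 in KO at S3. Slc25a3 fell from 751, 646, 803 and 508 to 308, 457, 405 and 325 CPM, with a log2 fold change of -0.86 ± 0.19 (SE, adjusted p in edgeR = 0.0028). Slc25a3 had 824 and 862 and then 419 and 407 CPM in Het and 827 and 625 and then 484 and 339 CPM in KO, again with every S3 library below every S1 library.

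The calcium-regulated ATP-Mg/phosphate carriers were low, under 10 TPM in every library. Slc25a23 stood at 2.13, 2.93, 2.53 and 2.49 CPM at S1 and 0.774, 0.551, 0.268 and 0.29 at S3 in WT, from 71 or more raw counts at S1 to between 4 and 18 at S3, and fell with a log2 fold change of -2.39 ± 0.37 (SE, adjusted p in edgeR = 0.000256). It had 2.69 and 2.73 and then 0.291 and 0.274 CPM in Het and 2.42 and 2.48 and then 0.254 and 0.283 CPM in KO, and its S3 values in Het and KO lay at or near the lowest of WT. Slc25a24 fell too (log2 fold change -2.28 ± 0.43, SE), and Slc25a25 was called higher (0.82 ± 0.30, SE) in a call lost without embryo 0 or 5 (edgeR adjusted p = 0.126 and 0.128), at -0.22 when scaled by total counts. Slc25a41 and Slc25a54 were at 0 or near it. Slc25a14, Slc25a27 and Slc25a30, relatives of the uncoupling proteins, had log2 fold changes of -0.17, -0.87 and -1.66, of which only that of Slc25a30 passed.

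Of the carboxylate and acylcarnitine carriers, the citrate carrier Slc25a1 moved furthest. It stood at 161, 181, 203 and 121 CPM at S1 and 30.4, 37.3, 34.1 and 22.4 CPM at S3 in WT and fell with a log2 fold change of -2.43 ± 0.22 (SE, adjusted p in edgeR = 6.51e-06). Its levels were 211 and 213 and then 34.2 and 34.3 CPM in Het and 220.0 and 167 and then 42 and 35.7 CPM in KO, and the lowest library of each stage was that of WT embryo 8. The oxodicarboxylate carrier Slc25a21 rose from 60.7, 47.8, 51.7 and 66.1 to 138, 141, 131 and 139.9 CPM, with a log2 fold change of 1.29 ± 0.13 (SE, adjusted p in edgeR = 1.18e-05), and was at 0.26 and short of the threshold when scaled by total counts. It had 55.8 and 49 and then 141 and 145 CPM in Het and 42.4 and 52.9 and then 113 and 128 CPM in KO, with the lowest value of each stage in KO embryo 2. Slc25a20, the carnitine-acylcarnitine carrier of fatty acid oxidation, was called higher at 0.60 ± 0.13 (SE) and turned to -0.42 under that scaling.

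The oxoglutarate carrier Slc25a11 stood at 95.8, 87.4, 99.7 and 74.1 CPM at S1 and 88.3, 99.5, 95.6 and 101 at S3 in WT and did not pass the test. Its levels were 103.9 and 97.1 and then 105 and 94.4 CPM in Het and 93.3 and 80.4 and then 109.8 and 103 CPM in KO, and both KO libraries were higher at S3. The dicarboxylate carrier Slc25a10 had a log2 fold change of 0.03 ± 0.13 (SE). Both were lower at S3 when scaled by total counts, Slc25a11 at -0.91.

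Nucleotide and cofactor carriers were 9, all tested, with 2 higher and 5 lower in WT, beside the 30.8% and 35.1% of all genes. With total-count scaling 1 was higher and 7 were lower, beside 13.9% and 63.3%. Slc25a33 and Slc25a36 carry pyrimidine nucleotides. Slc25a33 (ENSMUSG00000028982.10, chromosome 4 from 149828493 to 149858734 on the minus strand) stood at 13.8, 14.9, 16.8 and 11.5 CPM at S1 and 1.16, 1.75, 1.57 and 1.16 CPM at S3 and fell with a log2 fold change of -3.33 ± 0.23 (SE, adjusted p in edgeR = 1.4e-06), 10.0-fold. It had 16.7 and 18.2 and then 1.81 and 1.32 CPM in Het and 17.5 and 12.5 and then 1.97 and 0.905 CPM in KO. Of its exon bases 14.9% also belong to Gm13068, and without strand the reads there cannot be told apart. Slc25a36 fell from 16.2, 18.5, 15.7 and 21.9 to 7.05, 5.7, 4.75 and 7.18 CPM, with a log2 fold change of -1.54 ± 0.19 (SE, adjusted p in edgeR = 5.42e-05). Slc25a36 had 17 and 12 and then 5.36 and 6.8 CPM in Het and 14.1 and 18.1 and then 6.42 and 7.92 CPM in KO, and for both carriers all S3 libraries lay below all S1 libraries.

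Slc25a51, which imports NAD, rose from 71.2, 61.7, 53.9 and 101 to 236, 219, 333 and 152 CPM in WT, with a log2 fold change of 1.72 ± 0.25 (SE, adjusted p in edgeR = 0.000168). WT embryo 8 was the highest WT library at S1 and the lowest at S3. At S1 Slc25a51 stood at 80.9 and 72.1 CPM in Het and 89.2 and 80.6 CPM in KO. Slc25a32 (folate, -1.93) and Slc25a26 (S-adenosylmethionine, -1.91) fell as well. The coenzyme A-related Slc25a16 was called higher (0.42), lost the call without embryo 0, 1 or 5 (edgeR adjusted p = 0.142, 0.0986 and 0.13) and turned to -0.62 when scaled by total counts. Slc25a42, also a coenzyme A carrier, and the peroxisomal Slc25a17 (67.7, 72.5, 72.1 and 62.5 CPM at S1, 70, 79.8, 70.4 and 67.4 at S3) did not pass. Slc25a17 had 76.8 and 76.3 and then 80.5 and 76.3 CPM in Het and 74 and 70.4 and then 87.6 and 74.6 CPM in KO.

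Among the 8 members listed without a settled substrate, Slc25a46, an outer-membrane protein tied to mitochondrial shape, was called higher (0.72, but -0.32 when scaled by total counts). Slc25a35 (-1.99) and Slc25a45 (-1.79) fell. Slc25a35 shares 31.3% of its exon bases with Rangrf, which makes its value uncertain. Slc25a45 stood at 2.61, 3.73, 4.34 and 2.49 CPM at S1 and 1.59, 0.597, 0.842 and 0.725 CPM at S3 in WT, and at 3.65 and 3.98 and then 0.35 and 0.274 CPM in Het and 4.39 and 3.92 and then 0.445 and 0.622 CPM in KO. Both Het libraries at S3 lay below all WT libraries, from 6 and 5 raw counts against 37, 13, 22 and 10. Slc25a47 and Slc25a53 did not pass, and Slc25a34, Slc25a43 and Slc25a48 were not tested. The 8 members below the filter in WT had at most 0.793 TPM in any library apart from Slc25a43, which reached 2.56 TPM at S1. Slc25a34 and Slc25a54 had no read in any of the 16 libraries, which allows up to 0.0612 to 0.218 CPM at 3 counts in a library (counting error only, as reads are not independent molecules).

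The same comparison within the other genotypes uses other libraries. In KO 10 of 41 tested members were higher at S3 and 15 lower, where 25% of all genes were called higher and 28.7% lower, and in Het 12 of 41 were higher and 19 lower, against 36.6% and 39.7%. All 10 rises and all 15 falls of KO were also called in WT, which is 90.9% of the 11 WT rises and 88.2% of the 17 WT falls. All 11 rises and 17 falls of WT were called in Het, 91.7% and 89.5% of the Het calls. No member was called in opposite directions in any pair of genotypes. Scaled by total counts, 3 members were higher and 25 lower in KO (11.8% and 53.5% of all genes), and 6 and 33 in Het (17.9% and 64.2%). With the embryo as a block the KO counts were 13 and 19, beside 32.4% and 36.7% of all genes, and the WT and Het counts did not change.

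Slc25a37 had a log2 fold change of S3 over S1 of 5.70 in WT, 7.29 in Het and 6.37 in KO (standard errors 0.62, 0.17 and 0.59). Slc25a39 had 4.04, 4.10 and 4.21, and Slc25a38 2.36, 2.54 and 2.46. The fall of Slc25a4 was -3.40, -3.76 and -3.73. Slc25a51 had 1.72 in WT, 1.73 in Het and 0.82 in KO. Scaled by total counts the KO value of Slc25a51 turned to -0.09 (adjusted p in edgeR = 0.608), beside 0.69 in WT and 0.74 in Het. The test of the difference between KO and WT, the interaction of genotype and stage, called none of 40 members by edgeR or by DESeq2, with 2 at an unadjusted p under 0.05, Slc25a22 at 0.95 ± 0.37 (SE) and Slc25a26 at -0.82 ± 0.36 (SE). Over all genes edgeR called 0.00748% and DESeq2 0.0374% higher and 0.0524% lower, and 3.11% had an unadjusted p under 0.05 in edgeR. For Slc25a51 the interaction was -0.87 ± 0.41 (SE).

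In KO against WT at S3 none of 36 tested members passed by edgeR, where 0.457% of 11804 genes were called higher and 0.102% lower, and 3 members had an unadjusted p under 0.05, against 8.52% of all genes. The ranges of KO and WT did not overlap for 11 members, against 18.6% of all genes. The absolute log2 fold change was under 0.5 for 30 of the 36, or 83.3%, against 83.5% of all genes. DESeq2 called 1 member, Slc25a22, where it called 1.24% of all genes higher and 0.966% lower.

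Slc25a22, the glutamate carrier with the near-identical stretch named above, had the smallest p. It stood at 7.25 and 6.79 CPM in the KO libraries at S3 (114 and 120 raw counts), 4.51, 3.08, 2.91 and 3.26 in WT (105, 67, 76 and 45 raw counts) and 2.97 and 3.18 in Het. Both KO libraries were above all WT and Het libraries of that stage and below all libraries of S1, where the gene is 17.6 to 34.0 CPM. The log2 fold change was 1.04 ± 0.24 (SE, adjusted p in edgeR = 0.157), and the adjusted p was 0.0261 by DESeq2, 0.0267 by edgeR with sex as a covariate and 0.0136 by DESeq2 with sex, over a range from 0.0136 to 0.607 across all alternatives. With sex in the model edgeR called 2.41% of all genes higher and 2.22% lower, and DESeq2 2.64% and 3.37%. The 5 early erythroid and progenitor markers summed to 16.7 and 23.3 TPM in the KO and to 8.90 to 18.1 TPM in the WT libraries, and the neutrophil markers to 1.95 and 24.1 TPM against 1.63 to 3.15 TPM. Both marker lists fall from S1 to S3 as Slc25a22 does, and their part in the difference was not tested.

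Slc25a40 and Slc25a51 followed. Slc25a40 stood at 11.9 and 11.8 CPM in KO, below every WT library (15.9, 15.1, 15.9 and 14.8), with a log2 fold change of -0.37 ± 0.15 (SE, adjusted p in edgeR = 0.544). Slc25a51 stood at 161 and 142 CPM in KO and 266 and 241 in Het, and WT embryo 8 lay within the KO range, with a log2 fold change of -0.62 ± 0.27 (SE, adjusted p in edgeR = 0.586).

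Slc25a37, Slc25a38 and Slc25a39 overlapped between KO and WT at S3. Slc25a37 had a log2 fold change of -0.39 ± 0.28 (SE), from -0.75 without KO embryo 9 to -0.10 without KO embryo 2, and passed only in DESeq2 with sex as a covariate (adjusted p = 0.0205). Slc25a38 had -0.08 ± 0.14 (SE) and Slc25a39 -0.06 ± 0.15 (SE). For Slc25a5 it was 0.15 ± 0.25 (SE). In that comparison the 15 macrophage markers summed to 25.1 to 36.3 TPM in KO and 46.3 to 94.0 TPM in WT. Of these 14 were tested, all with log2 values of KO over WT below 0 (median -1.39). The test called 3 of them lower, where 0.102% of all genes were. The 14 hepatoblast markers summed to 91.9 and 219 TPM in KO and 189 to 758 TPM in WT. All 14 had log2 values of KO over WT below 0 (median -1.41), with none passing the test. Globin took 10.0 and 10.5% of counts in KO and 10.8 to 11.8% in WT. The part of these in the values of the members was not tested.

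**Figure D5:**
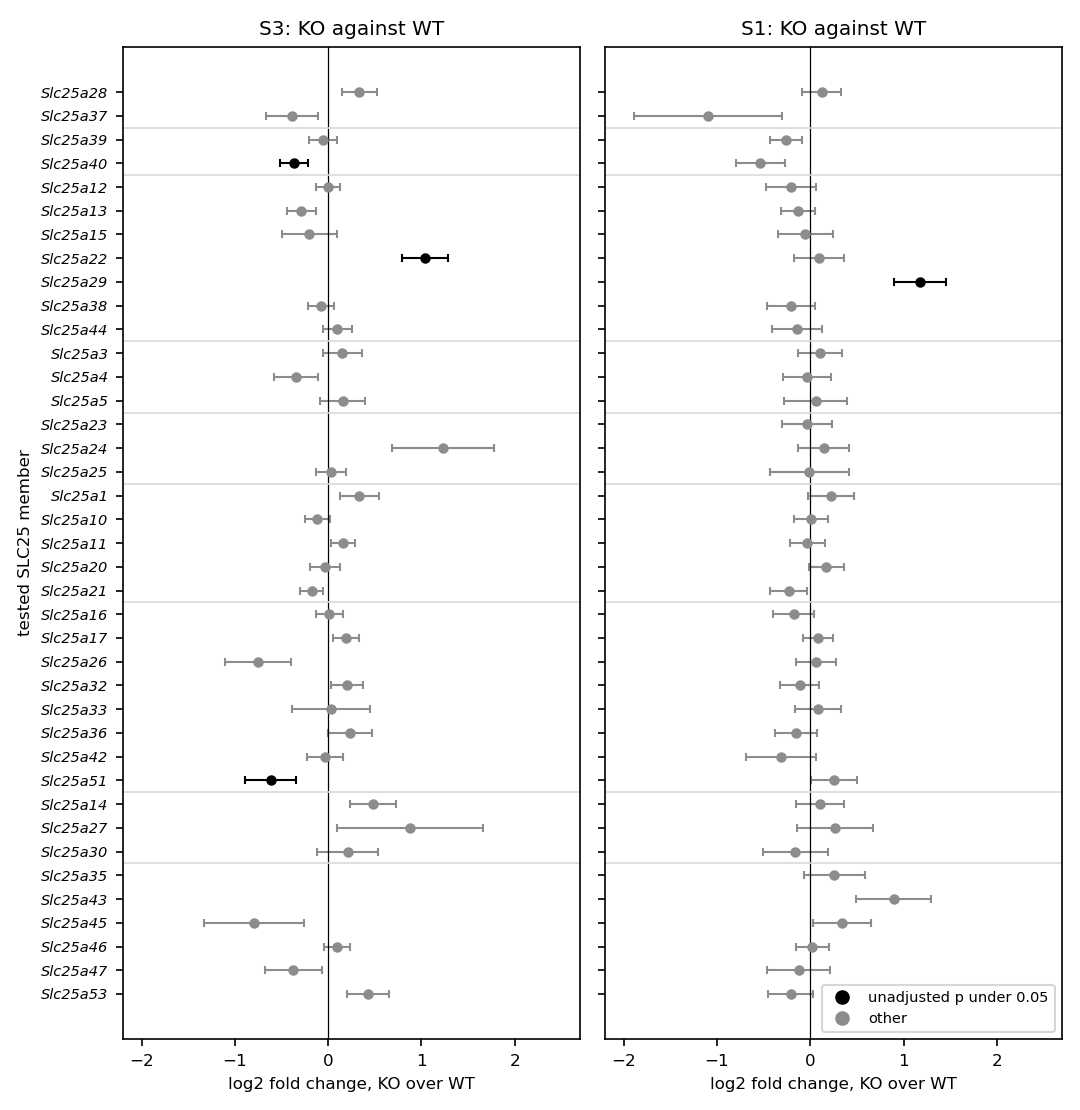
Log2 fold change of KO over WT with its standard error (horizontal axes) at S3 (left) and S1 (right) for the tested members shown; black points have an unadjusted p under 0.05 and no point passes the adjusted threshold. Slc25a22 at S3 (1.04) and Slc25a29 at S1 (1.17) stand furthest from 0 among the black points.

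At S1 none of 40 tested members passed in KO against WT by edgeR or DESeq2, where edgeR called 0.00713% of 14033 genes and DESeq2 0.264% higher and 0.057% lower, and 1 member had an unadjusted p under 0.05, against 2.53% of all genes. Groups did not overlap for 4 members, against 9.82% of all genes. Slc25a29 stood at 2.13 and 2.36 CPM in KO (90 and 115 raw counts), 1.8 and 1.5 in Het and 0.87, 1.01, 0.999 and 1.13 in WT (29, 43, 41 and 53 raw counts). WT, Het and KO did not overlap and Het lay between the others, with a log2 fold change of KO over WT of 1.17 ± 0.28 (SE, adjusted p in edgeR = 1.00). In Het against WT the log2 fold change was 0.71 ± 0.28 (SE), and both comparisons share the WT libraries.

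The next members at S1 were Slc25a43, with 1.19 and 0.78 CPM in KO and 0.51, 0.563, 0.682 and 0.362 in WT, and Slc25a40, with 6.12 and 5.4 and 8.28, 7.86, 6.61 and 11. Slc25a43 had 0.735 and 0.919 CPM in Het at S1, and at S3 0, 0, 0.191 and 0 CPM in WT, 0.175 and 0 in Het and 0.254 and 0 in KO. The KO over WT log2 fold changes of these members at S1 were 0.89 ± 0.40 (SE) and -0.54 ± 0.26 (SE). The value of Slc25a37 at S1 rested on the WT libraries that stand apart, at -1.09 ± 0.79 (SE) with all 4 and 0.39 without embryos 0 and 8. That of Slc25a29 was 1.14 without them.

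Het against WT also had no called member by edgeR or DESeq2 without a covariate, among 37 tested at S3 and 40 at S1, where edgeR called 0 of all genes at either stage and DESeq2 none higher and 0.00852% lower at S3 and 0.159% lower at S1. An unadjusted p under 0.05 was reached by 1 member at S3 (Slc25a45, -1.60 ± 0.56, SE) and by 2 at S1 (Slc25a37, -1.89, and Slc25a29), against 3.16% and 4.26% of all genes. Het and WT did not overlap for 6 members at S3 and 11 at S1, against 13.1% and 18.6% of all genes. With sex as a covariate edgeR called 4 members at S3, Slc25a5 at 0.51 (adjusted p = 0.00992), Slc25a3 at 0.37, Slc25a37 at -0.55 and Slc25a45 at -1.93, and 1 at S1, Slc25a37 at -2.61 (adjusted p = 0.00306). In the same fits 8.83% of all genes were called higher and 9.25% lower at S3, and 1.32% and 1.55% at S1, so that the members' counts at S3 lie near the background. Both Het embryos are male and the WT males are embryos 0 and 8, so that sex and whatever sets those libraries apart cannot be told apart. Without embryos 0 and 8 the S1 value of Slc25a37 in Het against WT was -0.41 (edgeR adjusted p = 0.827).

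Genes of the family under other symbols were compared in the same way. Ucp2, an uncoupling-protein relative that carries C4 metabolites, stood at 493, 343, 475 and 532 CPM in WT at S1 and 4206, 3619.9, 4945 and 5055 CPM at S3, and rose with a log2 fold change of 3.28 ± 0.19 (SE, adjusted p in edgeR = 5.68e-07). Scaled by total counts it was still higher, at 2.25. Mtch1 was called higher (0.75) and turned to -0.27 under that scaling, and Mtch2 did not pass (0.33). Ucp1 and Ucp3 were near 0. The median log2 fold change of the 3 tested genes in KO against WT was 0.02 at S3 and 0.10 at S1.

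Mitochondrial partners of the iron and glycine carriers in heme synthesis were a further list. Of 8 genes 6 were called higher in WT at S3 and 1 lower, and the same counts for higher held when scaled by total counts, with 2 lower. Over all genes 30.8% were called higher and 35.1% lower, and 13.9% and 63.3% when scaled by total counts. The largest changes were those of Alas2, which condenses glycine with succinyl-CoA (6.81 ± 0.78, SE), Fech, which inserts iron (4.60 ± 0.33, SE), and Ppox (3.94 ± 0.25, SE). Alas1, the housekeeping form of the first enzyme, fell (-3.51 ± 0.42, SE). In KO against WT the median over the 8 was -0.11 at S3 and -0.21 at S1.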

How the data were processed

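RNA of sorted S1 and S3 erythroblasts was amplified by a SMARTer procedure before poly(A) library preparation, per the labels. The authors mapped read pairs to mm39 with STAR 2.7.9 and deposited raw counts per gene from featureCounts 1.6.4, run without strand per the file headers. Symbols came from GENCODE M39 and matched 54749 of 55416 identifiers, and 4 library columns of no listed sample were not used. Total counts ran from 20666044 to 37609502, and counting error is small except for members with a few reads.

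Groups, sex and embryo number came from the labels. S3 was compared with S1 within each genotype, KO and Het with WT within each stage, and the interaction of KO and stage was fitted on 12 libraries. Each test was edgeR's quasi-likelihood test (edgeR 4.0.16, R 4.3.3) with TMM scaling, on genes with a mean above 10 normalised counts, with Benjamini-Hochberg adjustment over all genes tested and a threshold of 0.05. CPM are counts scaled to a common total after TMM scaling, and TPM were computed here from the deposited counts and the exon length of the same table. Summed TPM were compared by exact two-sided permutation tests, and between stages also by sign flips within embryos. The tests were run first on simulated data with known changes.

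Alternatives were DESeq2 1.42.0, sex as a covariate, other scalings, no filter, all libraries in 1 fit, the embryo as a block and leaving out embryos. Scaling by total counts, leaving out WT embryos 0 and 8 together and the paired test of the sums were added after seeing the data. S1 and S3 libraries with the same number come from the same embryo, so the numbers pair them. The deviations from the group means of such pairs correlated at 0.03, 0.31, 0.44 and 0.45 for WT embryos 0, 1, 5 and 8, 0.08 in Het and 0.59 in KO (13249 genes).

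The members and gene lists were chosen with earlier results of these data known. Values in every library were given for the 8 highest members by TPM in WT at either stage, members called in a genotype comparison, the 3 smallest p in KO against WT per stage, the 6 largest rises and falls in WT and near paralogues, and also for Slc25a45. One member counts in every total but is not reported by name here. The other members are given by group, and Slc25a30, Slc25a44 and others named with a value alone are there to account for every member. Markers of megakaryocytes summed to 52.0 to 316 TPM at S1 and 59.2 to 177 TPM at S3, and those of primitive erythroid cells to 12.4 to 630 and 5291 to 10429 TPM.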

Additional observations from a re-analysis of the deposited data

Results flagged for a closer look

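Each highest and lowest value was checked for a sample far from the others of its group, for the 23 members with values in every library and the summed family, in the WT groups of each stage. One value of 48 groups stood out. Slc25a43 had 0.191 CPM in WT embryo 5 at S3 (5 reads), and the other 3 WT libraries had none. Chance marks about 1 in 20 groups where values are not tied. With the other libraries tied at 0 any single value above 0 is marked, so nothing is drawn from this one.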

How the results depend on the processing

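Scaling by total counts gave 4 members higher and 28 lower at S3 in WT, 3 and 25 in KO and 6 and 33 in Het. It turned Slc25a12 to -0.48, Slc25a16 to -0.62, Slc25a20 to -0.42, Slc25a25 to -0.22, Slc25a40 to -0.15 and Slc25a46 to -0.32 on the log2 scale in WT, and Slc25a11 to -0.91 and Slc25a17 to -0.95. Leaving out 1 WT embryo gave 8 to 11 members higher and 17 to 18 lower, beside 25.6 to 31.8% and 29.5 to 33.8% of all genes.

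In KO against WT at S3, DESeq2, sex as a covariate and DESeq2 with sex each called 1 member higher, and DESeq2 with sex also 1 lower. These fits called 1.24, 2.41 and 2.64% of all genes higher, and 3.37% lower in the last. In Het against WT at S3 sex as a covariate gave 2 higher and 2 lower, and DESeq2 with sex 2 higher and 1 lower, beside 8.83% and 9.25%, and 9.99% and 7.75%, of all genes. At S1 both gave 1 lower, beside 1.55% and 3.29%. The cause was not tested.

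The summed family TPM of KO minus WT at S3 was -35.5 without globin genes and -0.0189 as a percent of counts. At S1 it ran from -388 to 378 TPM over leaving out 1 embryo, with 378 without KO embryo 9 and 258 without WT embryo 1. S3 minus S1 in WT was 928 TPM without globin genes and 0.153 as a percent of counts, and ran from -1042 to -553 TPM when 1 embryo was left out (exact permutation p = 0.1, the smallest that 3 against 3 allows). With the embryo as a block, by exact sign flips, the same -868 TPM had an exact paired permutation p of 0.125, the smallest that 4 pairs allow, a test added after seeing the data.

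With the embryo as a block, the stage counts were 11 higher and 17 lower in WT, 13 and 19 in KO and 12 and 19 in Het, beside 33.5% and 36.4%, 32.4% and 36.7%, and 37.0% and 40.1% of all genes, and the interaction called 0. Leaving out an embryo in the KO or Het stage comparison left no residual degrees of freedom and was not run.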

Other observations

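The import machinery that inserts carrier proteins into the inner membrane was measured beside the carriers. Of 16 genes 15 were tested in WT, and 0 were higher at S3 and 9 lower by edgeR, with a median log2 fold change of -0.85 beside -0.08 over all genes. Tomm5, a small subunit of the outer-membrane translocase, had -3.23, and the intermembrane chaperones Timm9 and Timm8a1 had -2.40 and -2.18. Over all genes 30.8% were called higher and 35.1% lower. Scaled by total counts 14 were lower, where 63.3% of all genes were. The KO against WT median over these genes was 0.12 for S3 and 0.05 for S1.

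Other mitochondrial membrane transporters had 10 of 21 tested higher in WT at S3 and 6 lower, against 7 and 11 when scaled by total counts. Over all genes 30.8% were called higher and 35.1% lower, and 13.9% and 63.3% under that scaling. Mcub, a subunit of the calcium uniporter, had 4.20 and the erythroid ABC transporter Abcb10 had 3.67, and Sfxn5, a sideroflexin, had -4.10. Sfxn5 was near the limit of counting, at 0.48 to 0.926 CPM in WT at S1 and 0 to 0.0766 CPM at S3 with 2 libraries at 0, so that the size of this value depends on the prior count of the fit. Between KO and WT their median was -0.02 for S3 and 0.01 for S1.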
